A study of Mus musculus with 6 samples.

Results

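The genes described here are 10 genes of Toll-like receptor (TLR) signalling, chosen by name from the 23420 genes measured by RNA sequencing in sorted tuft cells of the mouse ileum. They are the receptor genes Tlr1, Tlr2, Tlr3, Tlr4, Tlr5 and Tlr9, the adaptor genes Myd88 and Ticam1, the coreceptor gene Cd14 and the gene of the cytosolic sensor Nod2. The study sequenced 6 libraries that form 1 group, numbered as mouse replicates 1 to 6. The mice were C57BL/6J, carried green fluorescent protein at 1 allele of Gfi1b (Gfi1b-eGFP), and no treatment is given for them. Live cells positive for GFP and EpCam and lacking CD45 were sorted, so that the sort rests on Gfi1b, and no other cell type or treatment was available for comparison. The data are therefore described as levels of genes within libraries, in TPM. This is a share of all transcripts, scaled to a fixed total and corrected for transcript length. Comparing genes of a library on it assumes that reads cover transcripts evenly, which was not tested.

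TLRs are membrane proteins that bind conserved products of microbes. TLR1, TLR2, TLR4 and TLR5 act at the cell surface, where TLR2 pairs with TLR1 or TLR6 to bind lipoproteins, TLR4 binds LPS with MD-2 and CD14, and TLR5 binds flagellin. TLR3 and TLR9 act in endosomes on double-stranded RNA and on unmethylated CpG DNA. MyD88 is the adaptor of all TLRs except TLR3, which signals through TRIF, the product of Ticam1, and TLR4 uses both. NOD2 binds muramyl dipeptide in the cytosol, and in the small intestine it is best known from Paneth cells and crypt stem cells.

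The libraries held tuft cell transcripts and those of other epithelial cells. Of 13 tuft cell markers, 12 were found in the table, all of them above 0 in every library, with a summed level of 6882 to 11583 TPM. The summed level of 7 Paneth cell genes was 3563 to 21421 TPM, that of 8 enterocyte genes 7757 to 16298 TPM, that of 7 goblet cell genes 1053 to 5118 TPM and that of 5 crypt stem cell genes 317 to 788 TPM. Of the enterocyte sum, Fabp1 alone gave 4226 to 12794 TPM. Rn45s, the ribosomal RNA precursor, took 23.1% to 32.6% of the TPM, and replicates 4 to 6 held more of the transcript Gm20594 (5.18% to 5.64% of the TPM) than replicates 1 to 3 (1.56% to 2.13%). In bulk samples of this kind, fewer cells of a type and less RNA per cell cannot be told apart.

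Both adaptors, 1 receptor and the coreceptor were found in every library. Myd88, Ticam1, Tlr3 and Cd14 were listed above 0 in all 6 libraries, as were 47.2% of all genes in the table. The same 4 of the 10 genes reached at least 1 TPM in every library, as did 39.9% of all genes, and thus at least 0.1 TPM, as did 46% of all genes. A mean of at least 1 TPM was reached by 7 of the 10, which Tlr4, Tlr5 and Tlr9 missed, and by 51.4% of all genes. The other 6 genes were listed at 0 in 1 to 5 libraries, and 0 of the 10 were at 0 in all 6, against 32.9% of all genes. As depth is unknown, a 0 here means only that the gene is listed at 0, and for these genes the value of each library is given.

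**Figure D1:**
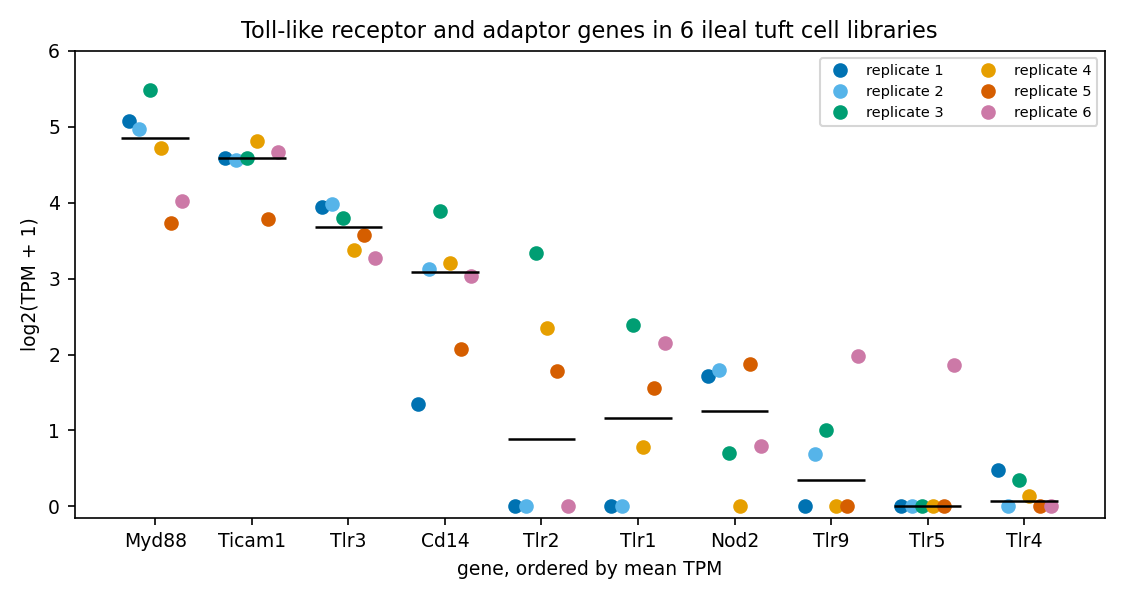
Levels of the 10 genes on the log2(TPM + 1) scale (vertical axis), ordered by mean TPM (horizontal axis). Each point is 1 of the 6 libraries and each line is the median. Myd88, Ticam1, Tlr3 and Cd14 lay above 0 in every library, and each other gene was at 0 in at least 1.

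Tlr3, the receptor of double-stranded RNA, was the most abundant TLR gene in every library. In GRCm38 it occupies chromosome 8 from base 45395665 to base 45411080, minus strand. In GENCODE, 381 of its exonic bases (7.32%) overlap Gm45542, a gene of the opposite strand that the table does not list. Its level was 8.68 TPM in the lowest library, 11.9 TPM at the median and 14.8 TPM in the highest, with a mean of 11.8 ± 2.58 TPM (SD, n = 6). Among the genes above 0 in the same library it ranked between percentiles 46.8 and 56.4. On the log2(TPM + 1) scale its SD over libraries was 0.30, and 14.9% of the 11047 genes above 0 in every library had a lower one. The lowest library was 6 and the highest was 2, and no library stood far from the others.

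Tlr2, whose product binds bacterial lipoproteins, had 9.08, 4.11 and 2.44 TPM in replicates 3, 4 and 5, and the remaining libraries listed it at 0. Tlr1, the gene of its partner, was at 0 in replicates 1 and 2, and at 4.26, 0.72, 1.94 and 3.45 TPM in replicates 3 to 6. Both genes were thus at 0 in replicates 1 and 2 and highest in replicate 3, while replicate 6 held Tlr1 without Tlr2. The difference of Tlr2 from Tlr1 within libraries was 0.10 ± 1.26 on the log2(TPM + 1) scale (SD, n = 6), within the spread (p = 0.875 by exact sign-flip permutation, 0.9375 after adjustment over 45 pairs). Its direction turned with a pseudocount of 0.1, to -0.23, and without replicate 3 or 4, to -0.07 and -0.20.

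Tlr1 and Tlr6, the gene of the other partner of TLR2, hold an identical run of 229 bases within their coding sequences on chromosome 5. A read from this run cannot be placed in one gene by its sequence. The stretch is given for both genes because it limits what the level of Tlr1 means, 5' to 3' in the direction of transcription and from GENCODE transcripts on GRCm38. Capitals mark the identical run, with 12 bases in lower case on each side.
Tlr1, minus strand, chr5:64925525-64925777: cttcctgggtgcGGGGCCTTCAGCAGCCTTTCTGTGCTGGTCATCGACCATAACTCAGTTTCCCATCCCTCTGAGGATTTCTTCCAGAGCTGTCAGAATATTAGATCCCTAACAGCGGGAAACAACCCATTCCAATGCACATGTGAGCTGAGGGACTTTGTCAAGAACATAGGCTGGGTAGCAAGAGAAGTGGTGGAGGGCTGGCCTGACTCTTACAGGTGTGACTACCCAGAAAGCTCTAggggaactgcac
Tlr6, minus strand, chr5:64953816-64954068: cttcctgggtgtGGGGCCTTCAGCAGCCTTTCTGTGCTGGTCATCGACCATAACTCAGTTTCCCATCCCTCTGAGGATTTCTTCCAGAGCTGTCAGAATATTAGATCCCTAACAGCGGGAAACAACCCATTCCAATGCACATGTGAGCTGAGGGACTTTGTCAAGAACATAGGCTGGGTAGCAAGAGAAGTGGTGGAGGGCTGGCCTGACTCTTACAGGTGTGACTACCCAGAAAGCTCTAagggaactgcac

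Over all transcripts of Tlr1 in that annotation, 663 of 3310 different stretches of 25 bases also occur in Tlr6. The authors' software divided such reads between genes by estimated shares. Tlr6 was listed at 0 in 5 libraries and at 0.30 TPM in replicate 3, and how the reads of the shared run were divided was not tested. Of the other genes, Tlr2, Tlr5, Tlr9, Ticam1 and Cd14 share no such stretch with any other gene of the annotation.

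Tlr4, Tlr5 and Tlr9 were near 0 in most libraries. Tlr4, the LPS receptor gene, was at 0.40, 0.27 and 0.10 TPM in replicates 1, 3 and 4 and at 0 in the others, and it never reached 1 TPM. Tlr5, the flagellin receptor gene, was listed at 2.63 TPM in replicate 6 and at 0 in the other 5 libraries. Tlr9, the CpG DNA receptor gene, was at 0.62, 1.00 and 2.95 TPM in replicates 2, 3 and 6 and at 0 in replicates 1, 4 and 5. Replicate 6, the highest for both Tlr5 and Tlr9, also had the highest summed goblet cell level, 5118 TPM, and the highest summed level of 8 T cell and intraepithelial lymphocyte genes, 252.9 TPM, against 29.0 TPM in the lowest library. Of that list, 6 of 8 genes were above 0 in every library, and in replicate 5, where the sum was 223.4 TPM and the goblet cell sum 2986 TPM, the next highest, Tlr5 and Tlr9 were at 0. Ptprc, the gene of CD45, against which the cells were sorted, ran the other way from the lymphocyte sum at its ends, with 170.9 TPM in replicate 1 and 74.2 TPM in replicate 6. Gfi1b, on which the sort rests, had the same ends, with 160.1 TPM in replicate 1 and 72.9 TPM in replicate 6. The cells that Ptprc came from were not tested. The part of goblet cells and lymphocytes in the Tlr5 and Tlr9 values was not tested either.

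The share of each gene in the summed TPM of the 6 TLR genes does not depend on the scale of a library. The sum was 14.3 to 27.5 TPM, and 2 to 5 of the 6 genes were above 0 in a library. Of all 23420 genes in the table, 13044 to 13308 were above 0 in a library. Tlr3 made up 97.3% and 96.0% of it in replicates 1 and 2, 65.6% and 71.3% in replicates 4 and 5, and 46.8% and 49.0% in replicates 3 and 6. The remainder was Tlr2 and Tlr1 in replicate 3 (33.1% and 15.5%), and Tlr1, Tlr9 and Tlr5 in replicate 6 (19.5%, 16.7% and 14.9%). The listed TLR genes beside Tlr3 differed between libraries, at levels of at most 9.08 TPM, and sampling of rare transcripts cannot be told apart from a difference between the mice.

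**Figure D2:**
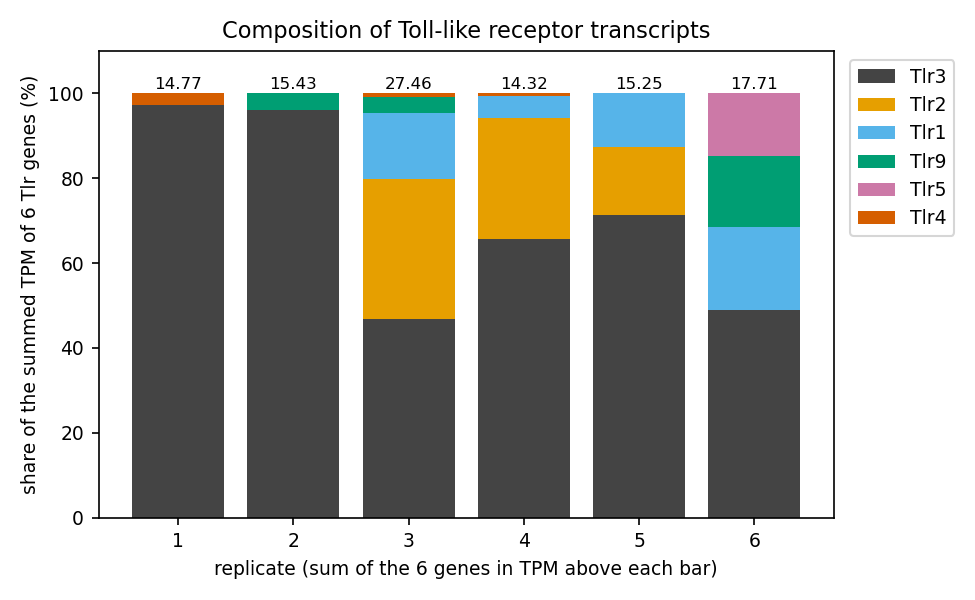
Share of each of 6 TLR genes (stacked colours, vertical axis in percent) in their summed TPM, for each of the 6 replicates (horizontal axis), with the sum in TPM above each bar. Tlr3 takes the largest share in every library, from 46.8% to 97.3%.

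By listed level, the adaptor genes were the most abundant of the 10. In GRCm38, Myd88 occupies chromosome 9 from base 119335934 to base 119341411, minus strand. It had 12.3 TPM in the lowest library, 27.9 TPM at the median and 43.6 TPM in the highest, with a mean of 26.6 ± 11.6 TPM (SD, n = 6). It was highest in replicate 3 and lowest in replicate 5, a range of 3.55-fold. Ticam1, on chromosome 17 from base 56269319 to base 56276786, minus strand, had 12.8 TPM in the lowest library, 23.1 TPM at the median and 26.96 TPM in the highest, with a mean of 22.2 ± 4.86 TPM (SD, n = 6). It lay between 22.71 and 26.96 TPM in 5 libraries and at 12.8 TPM in replicate 5. The SD on the log2(TPM + 1) scale was 0.67 for Myd88 and 0.36 for Ticam1, and the median over all genes above 0 in every library was 0.50.

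Myd88 and Ticam1 did not differ beyond their spread. Myd88 was higher in replicates 1 to 3, at 1.34 to 1.89 times Ticam1, and lower in replicates 4 to 6, at 0.624 to 0.962 times. The difference was 0.17 ± 0.54 on the log2(TPM + 1) scale (SD, n = 6; p = 0.5 by exact sign-flip permutation, 0.549 after adjustment). It was 0.59 ± 0.26 within replicates 1 to 3 and -0.26 ± 0.34 within replicates 4 to 6 (SD, n = 3 each), so its direction turned between these sets of libraries.

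The end of Myd88 overlaps that of Acaa1a, a gene of peroxisomal fatty acid oxidation transcribed from the opposite strand. The overlap takes 223 of the 1960 bases (11.4%) of the longest coding transcript of Myd88 in GENCODE. The SMART-Seq2 protocol does not keep the strand, and Acaa1a was more abundant than Myd88 in all 6 libraries, at 90.1 to 128.7 TPM. Reads covering these bases evenly at the level of Acaa1a would amount to 10.3 to 14.6 TPM of Myd88 if all were counted there. Myd88 was above that amount in 5 of 6 libraries, by up to 4.25 times in replicate 3, and in replicate 5 it was 0.973 times the amount. The authors' gene models were not used here, and how many such reads Myd88 received was not tested. Ticam1 shares no exonic base with another gene.

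**Figure D3:**
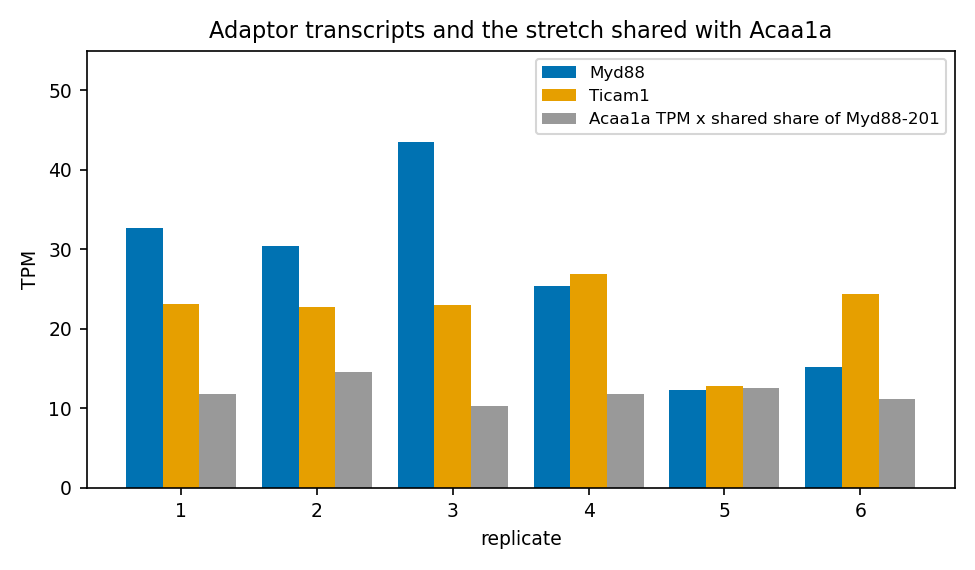
TPM (vertical axis) of Myd88 and Ticam1 in each replicate (horizontal axis), beside the TPM of Acaa1a multiplied by the share of the Myd88 transcript that overlaps it (grey). The grey bars run from 10.3 to 14.6 TPM, and Myd88 falls to that height in replicate 5.

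The 250 bases before the RefSeq start of Myd88 and of Tlr3 are shown because these were the adaptor and receptor gene of highest listed level. Both windows lie inside the GENCODE spans given above, which begin farther upstream. The windows and the motif positions thus depend on the start used. The sequences come from RefSeq on GRCm38.p6, which had such a sequence for 8 of the 10 genes and not for Tlr4 and Cd14. The windows were searched on both strands for GAAA, any 2 bases, GAAA, the core of sites for interferon regulatory factors, and for GGGA, any 4 bases, CC, a form of the NF-kB site, which do not overlap each other here. Capitals mark the matches.
Myd88, minus strand, chr9:119340019-119340268: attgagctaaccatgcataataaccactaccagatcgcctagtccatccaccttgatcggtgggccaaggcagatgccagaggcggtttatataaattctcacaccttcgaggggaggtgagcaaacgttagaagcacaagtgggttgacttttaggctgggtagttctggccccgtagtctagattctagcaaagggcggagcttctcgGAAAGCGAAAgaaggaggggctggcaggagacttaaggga
Tlr3, minus strand, chr8:45410381-45410630: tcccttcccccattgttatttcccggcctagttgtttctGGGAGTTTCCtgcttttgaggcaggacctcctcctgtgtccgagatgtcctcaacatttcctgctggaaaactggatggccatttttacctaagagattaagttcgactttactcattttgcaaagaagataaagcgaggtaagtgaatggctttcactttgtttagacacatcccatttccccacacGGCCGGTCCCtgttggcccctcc

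Myd88 held GAAAGCGAAA from base -40 to base -31, counted back from the RefSeq start. It was the only gene of the 8 with this motif, which 2.98% of 32851 promoter windows of the same length hold. Tlr3 held GGGAGTTTCC from -211 to -202 and GGCCGGTCCC from -23 to -14. Tlr2 and Tlr5 held 1 match of the same motif each, and 17.6% of all windows hold at least 1. A match describes letters only, since binding was not measured in these cells.

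Cd14, the gene of the coreceptor that hands LPS to TLR4 and MD-2, varied most of the 4 genes found in every library. Its level was 1.54 TPM in replicate 1, 7.48 TPM at the median and 13.8 TPM in replicate 3, with a mean of 6.96 ± 4.32 TPM (SD, n = 6). Replicates 1 and 5 were low, and the others lay at 7.21 TPM or above. The range was 8.99-fold, and the SD of 0.91 on the log2(TPM + 1) scale was higher than that of 88.4% of genes above 0 in every library. Cd14, Tlr1 and Tlr2 were all highest in replicate 3, in which the summed level of 12 macrophage and monocyte genes was highest too, at 43.3 TPM, against 17.7 TPM in the lowest library. Replicate 1, the lowest for Cd14, had the next highest sum, 36.3 TPM. Of the 12 genes, 4 were above 0 in every library, among them Itgam, which alone gave 20.66 TPM in replicate 3. Without Itgam, a sum added after its values were seen, the other 11 genes summed to 25.35 TPM in replicate 1, where Tlr1 and Tlr2 were at 0, and to 22.59 TPM in replicate 3. Lyz2 (9.06 against 4.33 TPM), C1qb (8.24 against 3.10 TPM) and C1qc (4.94 against 3.82 TPM) were higher in replicate 1 than in replicate 3. Cx3cr1 and Ccr2, at 0.40 and 0.24 TPM in replicate 1, were higher there too. Itgam (10.96 against 20.66 TPM), C1qa (1.53 against 3.88 TPM) and Cd68 (0.94 against 2.73 TPM) were lower in replicate 1, as was Csf1r. Fcgr1 was at 0 in all libraries, and Adgre1, the gene of F4/80, was at 1.13 TPM in replicate 2 and at 0 in the others. Csf1r was at 4.36 and 3.10 TPM in replicates 3 and 6 and at most 0.06 TPM elsewhere. The part of such cells in Cd14, Tlr1 and Tlr2 was not tested.

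For Nod2 the values of replicates 1 to 6 were 2.30, 2.46, 0.63, 0, 2.67 and 0.73 TPM. It lay between the 9.66th and the 23.8th percentile of the genes above 0 in the 5 libraries that held it. Replicate 4, in which it was at 0, had the highest summed level of the Paneth cell genes, 21421 TPM, and replicate 5, in which it was highest, had the next highest, 13266 TPM. The lowest Paneth cell sums, 3563 and 3826 TPM, were those of replicates 2 and 3, with 2.46 and 0.63 TPM of Nod2. Ripk2, the kinase through which NOD2 signals, ran from 0.12 TPM in replicate 6 to 8.17 TPM in replicate 3.

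All 45 pairs of the 10 genes were compared within libraries. In 27 pairs the same gene was higher in all 6 libraries. By listed level, Myd88 and Ticam1 each exceeded the other 8 genes. Tlr3 exceeded every gene below it but Cd14, which was higher than Tlr3 in replicate 3. The pairs of Myd88 make no allowance for its overlap with Acaa1a. With reads at the level of Acaa1a over the shared bases taken off, Myd88 would keep 20.9, 15.8, 33.3, 13.6, -0.34 and 4.07 TPM in replicates 1 to 6. Those amounts lie below Ticam1 in every library but replicate 3, and below Tlr3 and Cd14 in replicates 5 and 6. The order of Myd88 after such an allowance was not tested. Cd14 exceeded all TLR genes except Tlr3 in 6 of 6 libraries, and Nod2 in 5. Each of the 27 pairs reached p = 0.03125, the smallest that 6 libraries allow in the two-sided exact sign-flip permutation test. After Benjamini-Hochberg adjustment this became 0.0521 over the 45 pairs, so 0 pairs passed 0.05, and at least 29 pairs in 1 order would have been needed. The exact Mann-Whitney test, which the study names for comparing samples and which ignores the library of a value, passed 28 pairs after adjustment, with p-values over values that are not independent.

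**Figure D4:**
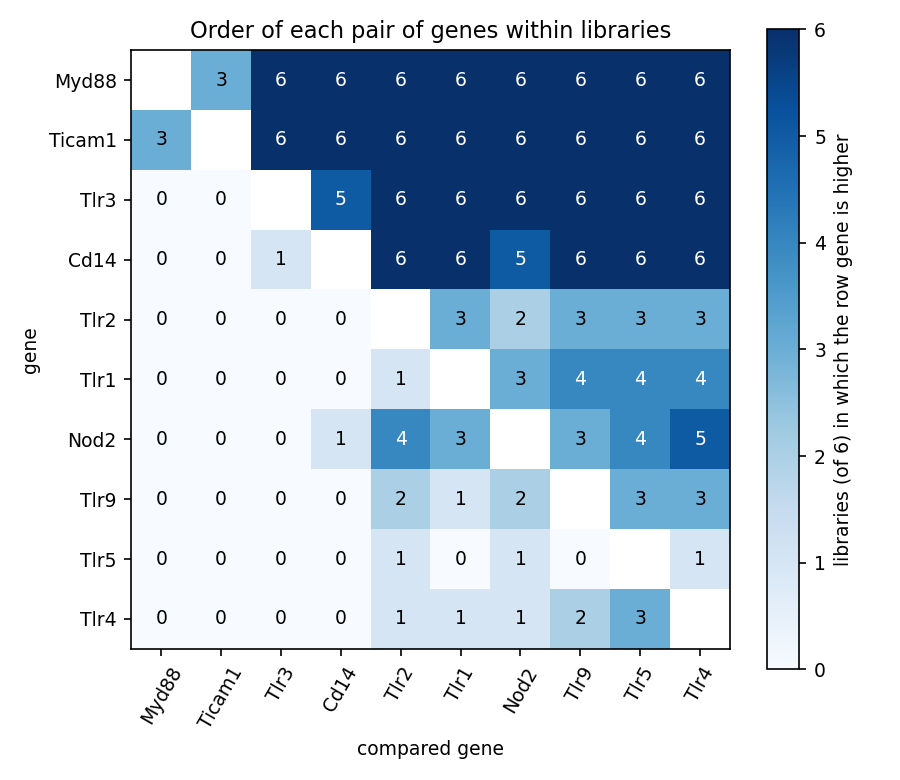
Number of libraries, of 6, in which the gene of a row was higher than the gene of a column, written in each cell and shown by shade. The upper rows, Myd88, Ticam1, Tlr3 and Cd14, hold the 27 pairs with 6 of 6 libraries, and no pair among the lower 6 genes reached 6.

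The levels as listed ran, by mean TPM, from Myd88 over Ticam1, Tlr3, Cd14, Tlr2, Tlr1, Nod2, Tlr9 and Tlr5 to Tlr4. The place of Myd88 makes no allowance for its overlap with Acaa1a. Of the 9 pairs of neighbours in this order, 2 were in the same order in every library, Ticam1 over Tlr3, by 0.84 ± 0.48, and Cd14 over Tlr2, by 1.53 ± 1.25 on the log2(TPM + 1) scale (SD, n = 6). The other 7 pairs were not in 1 order and did not differ beyond their spread, among them Tlr3 and Cd14 (0.88 ± 1.02; p = 0.0625 by exact sign-flip permutation, 0.0970 after adjustment) and every pair of neighbours below Tlr2. No pair among the lower 6 genes was in the same order in all libraries.

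Replicates 1 to 3 and 4 to 6, which differ in Gm20594, are not groups of the study and were not tested against each other. Of the 4 genes above 0 in every library, Myd88 and Tlr3 did not overlap between these sets, as was so for 16.9% of the 11047 genes compared. Myd88 had 30.4 to 43.6 TPM in replicates 1 to 3 and 12.3 to 25.5 TPM in replicates 4 to 6. Tlr3 had 12.9 to 14.8 TPM in replicates 1 to 3 and 8.68 to 10.9 TPM in replicates 4 to 6. Rescaling the libraries without Rn45s and Gm20594 brought Tlr3 to overlap, at 17.1 to 20.2 against 13.8 to 17.5 TPM, and left Myd88 apart, at 41.6 to 57.8 against 19.7 to 37.4 TPM. After this rescaling, 12.8% of the genes did not overlap. Median-of-ratios rescaling left Myd88 apart and Tlr3 overlapping too, with 13% of all genes apart. Within each set the SD of Tlr3 was 1.03 and 1.12 TPM (n = 3 each).

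The other genes of the pathway were described over 5 lists of 76 genes in all, of which 45 (59.2%) were above 0 in every library, against 47.2% of all genes, 18 in some and 13 in none. These shares are descriptions without a test. Of 15 genes of other receptors and ligand handling, 4 were above 0 in every library. Hsp90b1, the gene of the chaperone that folds TLRs, had 494.6 ± 69.8 TPM and Ly96, the gene of MD-2, had 31.7 ± 10.5 TPM (SD, n = 6 each), while Unc93b1, which carries endosomal TLRs, ran from 10.25 to 44.25 TPM. Tlr7, Tlr8, Tlr11, Tlr13, Lbp and Ly86 were listed at 0 in all 6 libraries. Ly96 exceeded Cd14 in 6 of 6 libraries, by 2.37 to 33.3 times, while Tlr4, the receptor both serve, stayed at or below 0.40 TPM. This list had a median of 0.09 on the log2(TPM + 1) scale of mean levels, against 0.91 over all genes.

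Of 16 adaptor and proximal kinase genes, 13 were above 0 in every library, where 47.2% of all genes were, with a list median of 2.86 on the log2(TPM + 1) scale. Irak1 and Irak4, kinases that MyD88 recruits, had 34.6 ± 4.83 and 32.4 ± 5.53 TPM, and Tab2, a TAK1 partner, had 21.1 ± 6.84 TPM (SD, n = 6 each). Irak3, which restrains these kinases, was at 0 in all 6 libraries. Ticam2, the adaptor that links TLR4 to TRIF, was at 3.62 TPM in replicate 1 and at 0 in the others, while Tirap, which links TLR2 and TLR4 to MyD88, had 6.47 to 10.7 TPM.

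Of 13 genes of the NF-kB and IRF arm, 11 were above 0 in every library, where 47.2% of all genes were. The list median was 4.24, against 0.91 over all genes. Irf7, a transcription factor of the type I interferon response, had 156.6 to 340.8 TPM, Relb had 27.64 to 75.02 TPM and Irf3, the factor that TRIF signalling activates, had 33.4 to 43.1 TPM. Of 15 genes listed as negative regulators, 12 were above 0 in every library, beside the same 47.2% of all genes. The list median was 4.05, and whether each gene of this list restrains the pathway in these cells was not measured. Nfkbia, which holds NF-kB in the cytosol, had 213.3 ± 49.5 TPM, Nfkbiz 36.4 ± 8.91 TPM and Tnip1 30.4 ± 7.96 TPM (SD, n = 6 each).

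Of 17 cytokine, chemokine and enzyme genes that TLR signals can induce, 5 were above 0 in every library, where 47.2% of all genes were. The list median was 0.48, against 0.91 over all genes. Il1a, Il6, Il12a, Il12b, Cxcl2 and Ifnb1 were listed at 0 in all 6 libraries. Ccl20, a chemokine of gut epithelium, had the highest mean of the list, at 49.97 to 875.1 TPM, was highest in replicate 1 and lay below Ccl5 in replicate 6. Ccl5, a chemokine also made by lymphocytes, had 9.29 to 158.0 TPM, and its 2 highest libraries, replicates 5 and 6, were those with the highest summed lymphocyte levels, 223.4 and 252.9 TPM. The part of lymphocytes in Ccl5 was not tested. Ptgs2, the gene of cyclooxygenase-2, had 11.5 ± 4.69 TPM (SD, n = 6).

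**Figure D5:**
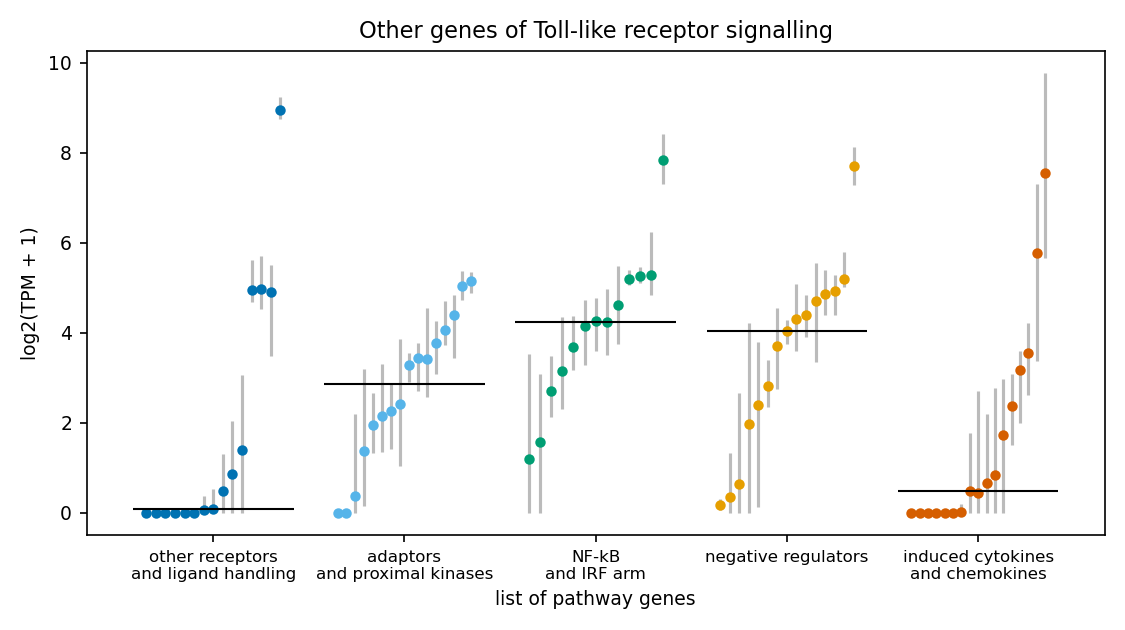
Levels on the log2(TPM + 1) scale (vertical axis) of 76 pathway genes in 5 lists (horizontal axis). Points are means over 6 libraries, grey lines run from the lowest to the highest library, and black lines are list medians, which lie between 0.09 for other receptors and 4.24 for the NF-kB and IRF arm.

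Other immune and stromal cells left few transcripts. The summed level was 0.86 to 7.53 TPM for 7 dendritic cell genes, 0.45 to 2.29 TPM for the 6 neutrophil genes found, 0.53 to 39.5 TPM for 7 B and plasma cell genes and 0.87 to 6.03 TPM for 8 stromal and endothelial genes. S100a8, S100a9, Mpo and Elane of neutrophils, Ms4a1 and Mzb1 of B and plasma cells, Flt3 and Ccr7 of dendritic cells, and Cdh5 and Col1a2 were at 0 in all libraries. Pdgfrb (0.75 to 6.03 TPM), Xcr1 (0.25 to 1.04 TPM) and Csf3r (0.45 to 1.96 TPM) were above 0 in every library. Zbtb46, of the dendritic cell list, was at 7.21 TPM in replicate 1. The B and plasma cell sum was highest in replicate 5, where Jchain was at 38.2 TPM. The 9 enteroendocrine genes summed to 379.2 to 535.4 TPM, of which Sct gave 330.8 to 473.7 TPM and the other 8 genes 10.4 to 126.9 TPM.

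The genes whose levels over the 6 libraries were most like those of the leading 3 were sought among 10720 others with a mean of at least 1 TPM. For Myd88 they were Ube2d3 (Pearson r = 0.995) and Acp1 (0.995), for Ticam1 Timmdc1 (0.998) and Pcx (0.990), and for Tlr3 Flywch1 (0.994) and Lsr (0.993), on the log2(TPM + 1) scale. With 6 points and so many genes such values are common, and r was over 0.9 for 265, 147 and 247 genes. They are a description of these libraries, whose scale the genes share.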

How the data were processed

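Tuft cells from 6 mouse replicates were sequenced, with RNA isolated from sorted cells and amplified by a modified SMART-Seq2 protocol. The labels list 3' polyA and 10X Genomics preparations as well, and TopHat among the tools. The authors aligned paired-end reads to the UCSC mm10 transcriptome with Bowtie and deposited TPM values calculated by RSEM. The strand setting and any gene filter were not found in the methods or labels. TPM keeps no read number, so depth is unknown and no detection limit was computed. Columns were matched to replicates by their numbers.

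Values were compared on the log2(TPM + 1) scale from differences within libraries, whose signs were flipped in all 64 ways (exact permutation, two-sided), with Benjamini-Hochberg adjustment over 45 pairs of genes. The sign-flip test and the rescaling were tested on simulated data. The 10 genes, the lists and the rule for named genes (the 10 genes, the 3 most abundant of each pathway list and those at 0, and the 2 genes most like each of the leading 3) were chosen with earlier results of these data known. Acaa1a, Tlr6, Csf1r, Itgam, Ptprc, Ripk2, Ticam2, Tirap, Jchain and the other single cell type markers given with values were named after their values were seen. The promoter windows and motifs were chosen after the levels were seen. Otulin, Adgre1 and Jchain were found under older symbols, and Sh2d6 and Ly6g were not found. Positions and overlaps come from GENCODE M21 on GRCm38. Alternatives were other pseudocounts, a filter at 0.1 TPM, rescalings, the exact Mann-Whitney test and leaving out each library. Tables were handled in pandas 2.3.3 and numpy 2.4.6, tests used scipy 1.17.1, and plots matplotlib 3.10.9, under Python 3.11.15.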

Additional observations from a re-analysis of the deposited data

Results flagged for a closer look

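In 7 of 37 measures, 1 library lay far from its nearest neighbour, relative to the whole range. The gap passed the 95% critical value of Dixon's ratio for 6 samples. For independent, normally distributed values, chance alone passes it in about 1 of 20 groups, or 1.85 of 37. TPM values with zeros are not of that kind, so 7 cannot be read as an excess over 1.85. Ticam1 was at 12.77 TPM in replicate 5 and between 22.71 and 26.96 TPM elsewhere (ratio 0.700), and its mean was 24.0 TPM without that library. Tlr9 was at 2.95 TPM in replicate 6 and at most at 1 TPM elsewhere (0.661). Tlr5 was at 2.63 TPM in replicate 6 and at 0 elsewhere, and a single value above 0 always gives its ratio of 1. Relb was at 75.02 TPM in replicate 1 and at most at 39.5 TPM elsewhere (0.751). Nfkbiz was at 54.45 TPM in replicate 4 and at most at 34.6 TPM elsewhere (0.857). Ly96 was at 51.34 TPM in replicate 1 and at most at 32.8 TPM elsewhere (0.632). The summed level of the dendritic cell genes was 7.53 TPM in replicate 1 and at most 2.74 TPM elsewhere (0.718).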

How the results depend on the processing

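No paired analysis was possible because the 6 libraries form 1 group, so that no groups share replicate numbers, while genes were compared within libraries throughout. Pseudocounts and rescalings cannot turn the order of a pair within a library, so the count of 0 pairs past an adjusted p of 0.05 by the sign-flip test was fixed under them and says nothing of stability. The exact Mann-Whitney test passed 28. It ignores the library of a value, and its 924 rank assignments, against 64 sign assignments, allow smaller p-values. The difference of Tlr2 from Tlr1, 0.10 on the log2 scale, turned to -0.23 and -0.75 with pseudocounts of 0.1 and 0.01 and to -0.12 within replicates 4 to 6, and lay between -0.20 and 0.55 with each library left out. That of Myd88 from Ticam1 turned to -0.26 within replicates 4 to 6 and lay between 0.02 and 0.33 with each library left out. Their causes were not tested. The comparisons within sets of libraries were chosen after the data were seen. The number of pairs in 1 order was 27 to 28, and that of genes above 0 in every library 4 to 5, with each library left out (5 without replicate 4, when Nod2 joined). Rescaling without Rn45s and Gm20594 raised the median gene by 0.41 to 0.69 on the log2 scale, and the means of all 10 genes rose, that of Myd88 to 37.7 TPM. Only the means of Ticam1, to 32.1 TPM, and of Tlr3, to 17.0 TPM, rose by more than their SD over libraries. Leaving out a library lifts the lowest possible p to 0.0625, and those results are given untested.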
